A study of Mus musculus with 23 samples.

Results

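The transcripts described here encode 9 secreted proteins of the pancreatic acinar cell, Cpa1, Cpb1, Pnlip, Pnliprp1, Cela3b, Ctrb1, Prss2, Clps and Cel, as measured in scrapings of mouse small intestine. They were taken by gene name from the array, and all 9 were among the 21477 genes measured above background, out of 34741 on the array. They were chosen by their measured log2 ratios in these same mice, as genes that range widely and move together, so their ranges, their correlations with one another and their difference between diets are given as descriptions.

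All 23 animals were adult male C57BL/6J mice. After 3 weeks of adaptation on a normal-fat diet, 12 mice received a high-fat diet (HF) and 11 the same diet with 0.33% by weight of the flavonol quercetin (HF-Q), for 12 weeks. Every mouse was fasted for 2 to 4 hours before it was killed, and each gave 1 array. On each array the Cy5-labelled RNA of that mouse was read against a Cy3-labelled equimolar pool of all samples, so a value of 0 is the level in the pool and every value below is a log2 ratio to it, unless called a raw signal. The arrays lay on 3 slides with both diets on each, and each slide had its own scan time.

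Acinar cells make most of the protein that the pancreas secretes. They store digestive enzymes in zymogen granules, proteases among them as inactive precursors, and release them into the duct that opens into the duodenum, where enteropeptidase of the gut wall starts the activation of trypsinogen. The enzymes act in the intestinal lumen, and the gland that makes most of them is spread, in the mouse, through the mesentery along the duodenum. An array of RNA reads their transcripts and not enzyme protein taken up or bound by the intestine.

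Each gene was read by a probe of 60 bases. Probe sequences of 3 members of lipid digestion, of an elastase and of a trypsinogen are shown, in lower case throughout and on the mm9 build of the scanner files, because the comparisons between close relatives turn on them. The probe of Pnliprp1 covers 594 bases of the genome, so its 60 bases match in more than 1 piece, as a probe across a splice junction does.
Pnliprp1 (chr19:58815028-58815621, + strand): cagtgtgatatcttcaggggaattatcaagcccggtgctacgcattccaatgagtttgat
Cel (chr2:28411609-28411668, - strand): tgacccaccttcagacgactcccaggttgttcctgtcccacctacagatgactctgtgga
Clps, second probe (chr17:28695761-28695820, - strand): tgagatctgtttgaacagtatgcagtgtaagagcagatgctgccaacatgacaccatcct
Cela3b (chr4:136979192-136979251, - strand): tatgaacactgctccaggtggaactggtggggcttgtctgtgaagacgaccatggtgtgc
Prss2 (chr6:41473937-41473996, + strand): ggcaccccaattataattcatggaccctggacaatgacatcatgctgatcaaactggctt
Prss2, a trypsinogen, and Cela3b, an elastase, belong to families of closely related genes, and the amylases do too. How far a probe of 1 trypsinogen, elastase or amylase gene also binds its relatives was not tested, and values of single genes in these families are uncertain to that extent.

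The tissue label was checked on marker genes. All 12 markers of enterocytes, the absorptive cells of the gut, were measured on all 23 arrays. One protocol field of the labels names liver as the source of the RNA. Among 10 genes of hepatocytes, the secreted proteins Ahsg and Mup3 were well above background on 0 arrays and Fgb and Hpx on 2, Alb on 11, and the remaining 5 on 23. Probes well above background numbered 27085 to 31525 per array, and local Cy5 background had medians of 41 to 48 intensity units.

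Of the 9 transcripts, 8 ran together through the mice over a measured range of 17.4-fold to 197-fold, the largest of them reaching down to spots not well above background, and colipase (Clps) did not. The same 5 mice were highest in each of the 8, and the highest of all was a quercetin-fed mouse. A standard deviation over the mice above 1 was reached by these 8 members and by 74 of all genes (0.345%), against a median SD of 0.16 over all genes. Since every value is an average over a scraping, fewer acinar cells and less RNA per acinar cell cannot be told apart.

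The carboxypeptidases remove amino acids from the end of peptides. Cpa1, carboxypeptidase A1, which releases aromatic and aliphatic residues, lay in HF mice at a lowest, median and highest log2 ratio of -3.47, -1.06 and 1.83, and in HF-Q mice at -3.69, -1.63 and 2.08. Its range of 5.77 is 54.5-fold, and its raw Cy5 signal ran from 392 to 27300 intensity units with a median of 2030. Both diets covered nearly the whole range. Cpb1, carboxypeptidase B1, which releases basic residues, had the widest range of the 9. It lay at -4.93, -1.11 and 2.07 in HF and at -5.15, -1.88 and 2.47 in HF-Q, a measured range of 7.62 or 197-fold. On 4 arrays (HF mice 8 and 12, HF-Q mice 2 and 10) the Cpb1 spot was not well above background, so its level there has only an upper bound and the fold is no exact value. By SD, Cpb1 was number 5 of the 21477 genes and Cpa1 number 18.

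Pancreatic lipase and its relatives split dietary fat. Pnlip, the main triglyceride lipase of the duodenum, lay at -4.57, -1.15 and 1.99 in HF (lowest, median and highest log2 ratio) and at -4.51, -1.75 and 2.42 in HF-Q. The measured range was 127-fold, but its lowest value, in HF mouse 12, came from a spot not well above background and is only an upper bound, so this fold is no exact value. Pnliprp1, a pancreatic relative of Pnlip with little or no triglyceride lipase activity, lay at -1.98, -0.92 and 1.76 in HF and at -2.01, -1.20 and 2.11 in HF-Q. Its range of 17.4-fold was the smallest of the 8 that ran together. Cel, the carboxyl ester lipase that bile salts stimulate and that splits cholesteryl and vitamin esters, lay at -2.61, -0.84 and 1.80 in HF and at -2.39, -1.28 and 2.22 in HF-Q. Its range was 28.3-fold.

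The serine proteases and the elastase are made as zymogens that trypsin activates. Ctrb1, chymotrypsinogen B1, lay at -3.10, -0.99 and 1.92 in HF and at -3.12, -1.44 and 2.14 in HF-Q, a range of 38.2-fold. Its raw signal ran from 895 to 54000 intensity units. Prss2, a trypsinogen, lay at -3.52, -1.03 and 1.77 in HF and at -3.63, -1.51 and 2.20 in HF-Q, a range of 56.7-fold. Cela3b, a chymotrypsin-like elastase, lay at -3.49, -1.18 and 1.82 in HF and at -3.71, -1.73 and 2.33 in HF-Q, a range of 66.0-fold. In all 3 genes the diets overlapped over almost their full range.

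Clps encodes colipase, the small cofactor that anchors pancreatic lipase to fat droplets in the presence of bile salts. Its log2 ratio lay at -0.32, 0.18 and 0.97 in HF and at -1.37, -0.03 and 0.40 in HF-Q, where 1 of the 11 mice (HF-Q mouse 3) had no value because the scanner software marked its spot as an outlier. The range was 5.09-fold, and the SD of 0.46 was number 732 of all genes. The highest Clps value was in HF mouse 11, which was also among the highest in the other members, and the lowest in HF-Q mouse 2. Without HF-Q mouse 2 the range fell from 2.35 to 1.32 log2. The Clps spot was bright in every mouse, with raw signals of 13800 to 78100 and none saturated. A second Clps probe, whose sequence is printed above, ran from -1.37 to 1.03 and correlated with the first at r = 0.97 over 22 mice.

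**Figure D1:**
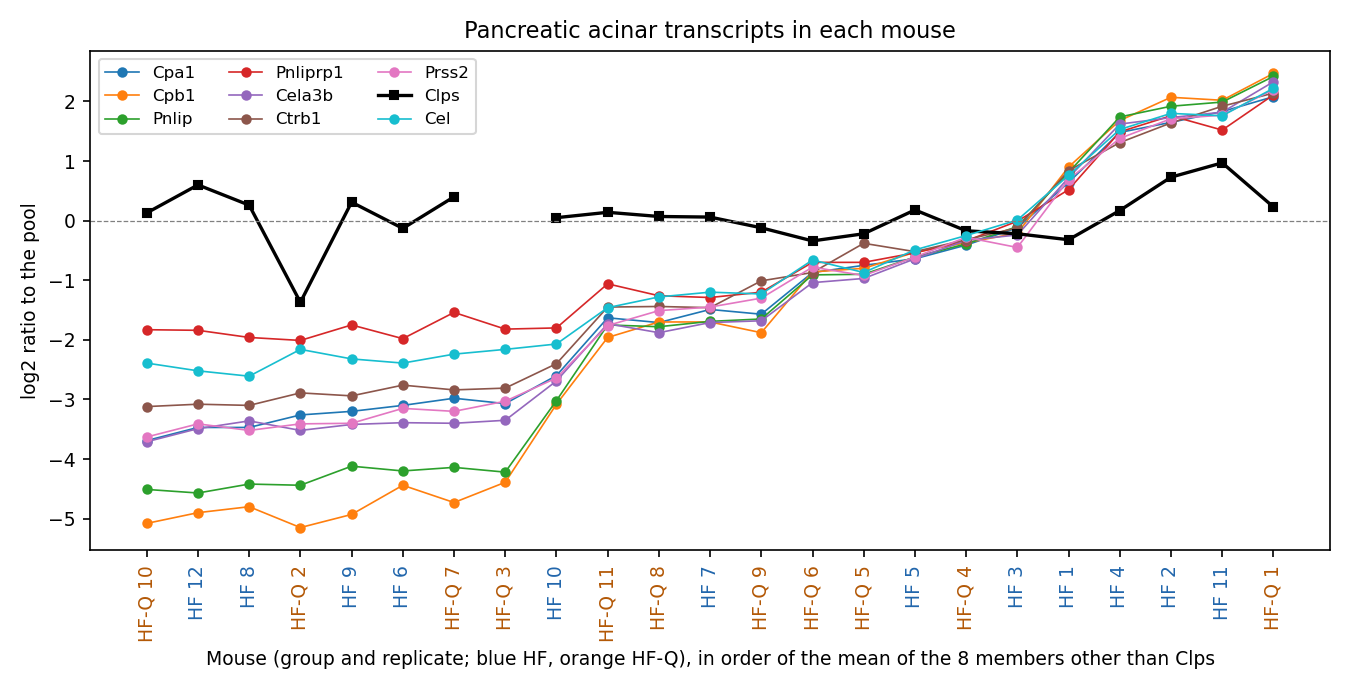
The log2 ratio to the pool (vertical axis) of the 9 genes is plotted for each of the 23 mice, which are ordered along the horizontal axis by the mean of the 8 genes other than Clps; each coloured line is 1 gene and Clps is the black line with squares. The 8 coloured lines rise together from 8 low mice to 5 high ones, and Clps stays between -1.37 and 0.97 without following that order.

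The order of the mice was shared closely. By the mean of the 8 members without Clps, HF-Q mouse 1 was highest at 2.25, followed by HF mouse 11 at 1.83, HF mouse 2 at 1.78, HF mouse 4 at 1.53 and HF mouse 1 at 0.73. These 5 mice were the 5 highest in each of the 8 genes, and on the linear scale they held 65.0% (Pnliprp1) to 79.0% (Cpb1) of a gene's ratio summed over the 23 mice. For 7 of the 8 genes 18 mice lay below the pool, and for Cel 17 did.

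At the other end 8 mice, 4 of each diet, lay close together, with means of the 8 genes between -3.49 and -3.11. The next mouse stood at -2.54. These 8 mice were the 8 lowest in 7 of the genes, and for Pnliprp1 7 of them were. The genes kept different distances from the pool there: in HF-Q mouse 10, for example, where these spots were well above background, Pnlip stood at -4.51, Cpa1 at -3.69, Cel at -2.39 and Pnliprp1 at -1.83. In HF-Q mouse 1, the highest, Pnlip stood at 2.42, Cpa1 at 2.08, Cel at 2.22 and Pnliprp1 at 2.11.

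The pool gives a measure of the error of the arrays, since it was the same RNA on each. The SD over arrays of the normalized log2 Cy3 signal was 0.0548 (Cela3b) to 0.108 (Ctrb1) for the 8 genes and 0.0455 for Clps. The SD of the Cy5 signal of the same probes was 1.36 (Pnliprp1) to 2.62 (Cpb1), and 0.456 for Clps. The pool shows the error of the arrays at its own brightness, and the wide spread in Cy5 is what the 8 genes were chosen by.

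**Figure D2:**
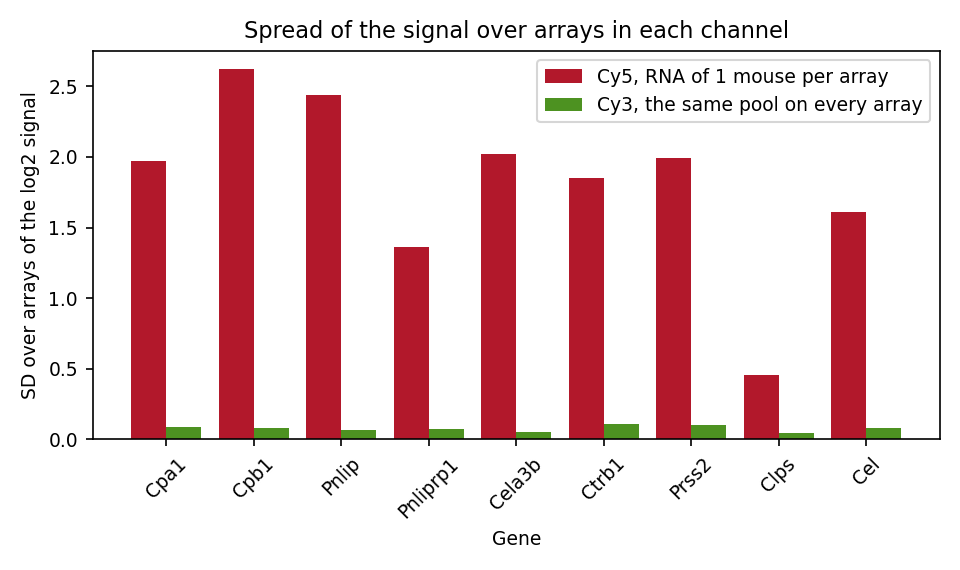
Bars give the SD over the 23 arrays of the normalized log2 signal (vertical axis) of each gene, in red for the Cy5 channel with 1 mouse per array and in green for the Cy3 channel with the same pool on every array. The Cy5 bar is the taller one for all 9 genes, from 0.456 for Clps to 2.62 for Cpb1, whereas no Cy3 bar exceeds 0.108.

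Over the 23 mice, the 28 pairs among the 8 genes had Pearson r of 0.94 to 0.998 with a median of 0.99, and Spearman rho of 0.94 to 0.99. The points share their arrays, and the members were picked as a set that moves together. Without HF-Q mouse 1 and HF mouse 11, the 2 mice farthest from the median, r was 0.93 to 0.997. Within HF it was 0.96 to 0.999 and within HF-Q 0.91 to 0.997, and on the 3 slides the lowest r was 0.97, 0.96 and 0.94. The closest pairs differed little from mouse to mouse: the difference Cpa1 minus Prss2 had an SD of 0.14, and Cpa1 minus Cela3b of 0.17. The difference between Cpb1 and Pnliprp1, the genes of widest and narrowest range, had an SD of 1.43.

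The 8 pairs with Clps had r of 0.23 to 0.34 and rho of -0.03 to 0.12 over 22 mice. Without the same 2 mice r was 0.05 to 0.18. The slides differed: r was -0.76 to -0.70 on slide 1, 0.25 to 0.40 on slide 2 and 0.54 to 0.64 on slide 3, each over at most 8 mice. Neither the direction nor the size of the relation between Clps and the other members was therefore shared between slides.

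**Figure D3:**
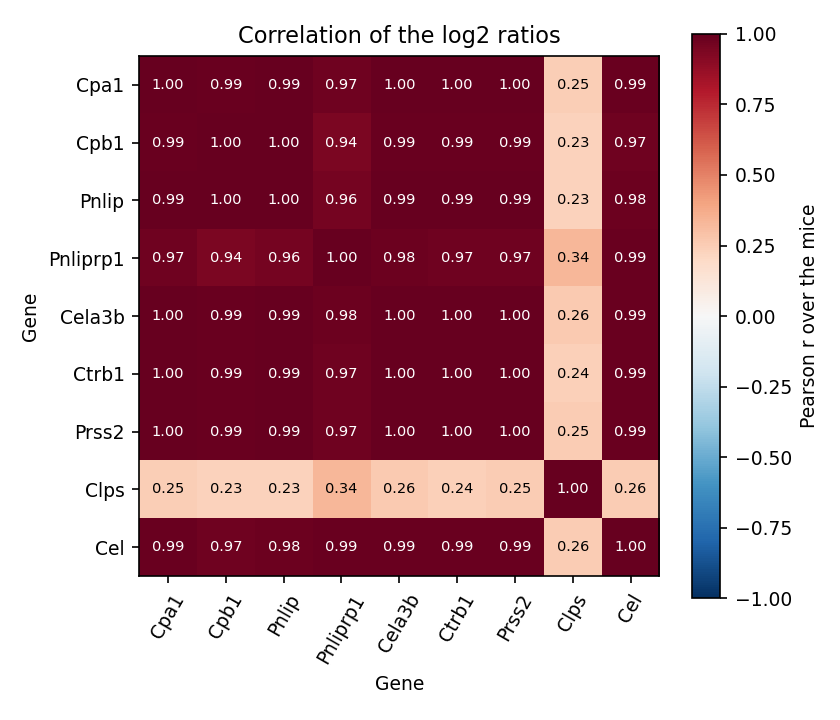
Each cell of the matrix gives the Pearson r of the log2 ratios of 2 genes over the mice, with both axes listing the 9 genes and the colour scale running from -1 (blue) to 1 (red). The row and column of Clps hold values of 0.23 to 0.34, and every other pair lies at 0.94 or above.

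Quercetin was compared with the high-fat diet alone over all genes, the question being how quercetin in the food alters transcript levels in the intestine. All 9 members had a lower mean in HF-Q, with differences of -0.35 (Clps) to -0.73 (Cpb1) and a median of -0.51, beside a median of -0.0038 over all genes. In limma's fit over all 21477 genes 0 of the 9 passed an adjusted p under 0.05, where 0% of all genes passed, and 0 of 9 had an unadjusted p under 0.05, against 4.53% of all genes (2.43% lower and 2.10% higher with quercetin). Adjusted p was 0.950 to 0.962 for the members. These 9 differences are not separate pieces of evidence, since 8 of the genes measure nearly the same order of mice.

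The spread within each diet was larger than the difference for all 9 genes, and the 8 that ran together are given first. The HF mean of Cpa1 was -1.04 ± 2.11 (SD, n = 12) and its HF-Q mean -1.62 ± 1.66 (SD, n = 11), a difference of -0.58 ± 0.73 (SE; 95% interval -2.10 to 0.93). Cpb1 averaged -1.49 ± 2.84 and -2.22 ± 2.40, with a difference of -0.73 ± 1.02 SE. Pnlip averaged -1.36 ± 2.64 and -2.02 ± 2.16, with a difference of -0.67 ± 0.93 SE. These intervals include both a clear fall and a rise. For Pnliprp1 the difference was -0.45 ± 0.52 SE, for Cel -0.49 ± 0.61, for Cela3b -0.66 ± 0.77, for Ctrb1 -0.47 ± 0.69 and for Prss2 -0.51 ± 0.75. The median of HF was exceeded by 4 of the 11 HF-Q mice for 7 of these 8 genes and by 3 for Cel.

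Clps had the smallest difference and the smallest error. Its HF mean was 0.22 ± 0.39 (SD, n = 12) and its HF-Q mean -0.13 ± 0.49 (SD, n = 10), a difference of -0.35 ± 0.17 (SE; 95% interval -0.71 to 0.01), with an adjusted p of 0.950 in limma. The diets overlapped, and 2 HF-Q mice exceeded the median of HF. Without HF-Q mouse 2 the difference was -0.21, and the second probe gave -0.32.

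Within the slides the difference changed sign. The mean of the 9 genes per mouse (of the 8 with a value in HF-Q mouse 3) came to -0.87 ± 1.91 for HF (SD, n = 12) and -1.45 ± 1.56 for HF-Q (SD, n = 11), a difference of -0.58, or -0.53 with slide as a block and -0.92 without HF-Q mouse 1. It was -0.48 on slide 1 (4 mice of each diet), 0.20 on slide 2 (4 HF and 3 HF-Q mice) and -1.21 on slide 3 (4 of each). The 8 genes without Clps gave -0.41, 0.23 and -1.28. On slide 2 HF-Q was higher for each of the 8 genes, by 0.13 (Cpb1) to 0.39 (Pnliprp1), while Clps stood at -0.01, and on slide 3 the difference was negative for all 9, from -0.71 (Clps) to -1.59 (Cpb1). Slide 2 holds HF-Q mouse 1, the highest mouse, together with HF mouse 11, ranked 2, and HF mouse 1, ranked 5. Slide 3 holds HF mice 2 and 4, ranked 3 and 4. The part of single mice in the change of sign was not tested.

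**Figure D4:**
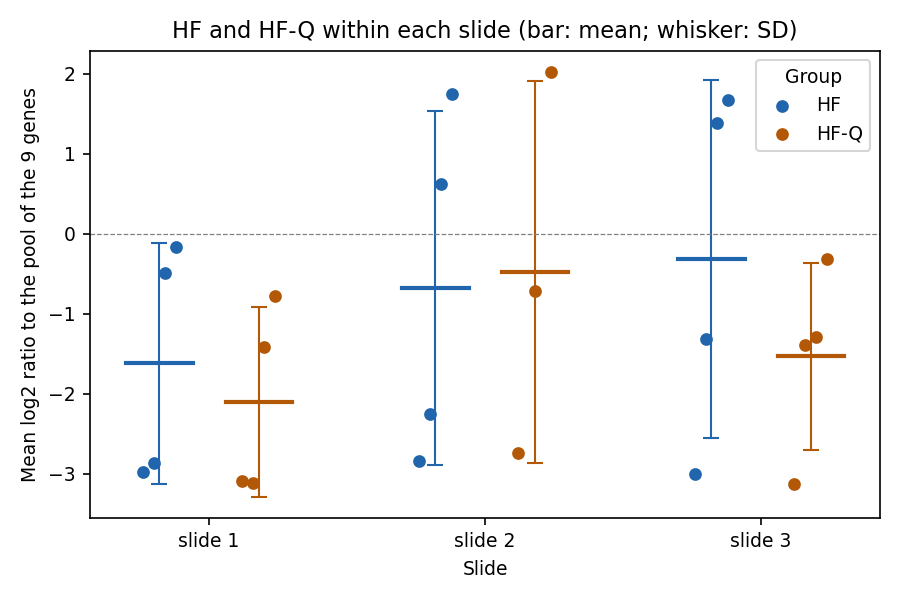
Each point is the mean log2 ratio to the pool of the 9 genes in 1 mouse (vertical axis), by slide (horizontal axis) and diet, blue for HF and orange for HF-Q, with bars for the means and whiskers for 1 SD. The diets overlap on every slide, and the HF-Q mean lies 0.48 below the HF mean on slide 1, 0.20 above it on slide 2 and 1.21 below it on slide 3.

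Other products of the acinar cell were examined from a list of 29, of which 24 were measured; Cuzd1 and Serpini2 were above background on 4 and 7 arrays and fell below the filter, and Prss3, Try10 and Amy2b were not matched to a probe. Of the 24, 21 had a positive r with the mean of the 9 members and 15 an r over 0.8, a value that 0.130% of all genes reached; the median r of the list was 0.88. The mean of the list followed the mean of the 9 members with r = 1.00 and rho = 0.99. The list mean lay at -1.64, -0.50 and 1.10 in HF (lowest, median, highest) and at -1.82, -0.72 and 1.35 in HF-Q. With quercetin 21 of the 24 were lower and 3 higher, with a median of -0.19 beside -0.0038 over all genes, and 0 passed the test. The share of all genes lower with quercetin was not counted. These differences are not separate pieces of evidence, since 15 of the genes had an r over 0.8 with the mean of the members.

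The genes of that list most like the members cover several enzyme classes. Among them were the trypsinogens Prss1 (r = 1.00) and Try4 (0.98), the elastases Cela1 (0.98) and Cela2a (0.99), the amylases Amy1 and Amy2a5 (both 0.99), which split starch, and the chymotrypsin-like protease Ctrl (0.98). Amy2a5 ran from -5.75 to 2.62, a range of 330-fold, and Try4 from -5.21 to 2.45. HF-Q mouse 1 was the highest mouse for Amy2a5 too.

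The 4 least like the members were Erp27 (r = -0.31), a protein of the endoplasmic reticulum, Tmed6 (-0.17), Pnliprp2 (-0.07) and Zg16 (0.30), a lectin that goblet cells of the gut also make. Pnliprp2, a lipase that also splits galactolipids and phospholipids, is the neighbour of Pnliprp1 in the RefSeq gene order of chromosome 19, where Pnlip, Pnliprp1 and Pnliprp2 follow each other. Pnliprp2 ran from -0.68 to 0.81, a range of 2.80-fold, against 17.4-fold for Pnliprp1. It was well above background on all 23 arrays, as was every member except Cpb1 and Pnlip.

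Outside the lists, the named gene most like the members was Cela3a (r = 0.99), which lies next to Cela3b. It was followed by Gm5771 (0.99) and 2210010C04Rik (0.89), and Gm10334 reached 0.73. In the RefSeq order Gm5771, Gm10334, Prss1 and Prss2 follow each other, and 2210010C04Rik is the neighbour of Try4, so all 3 lie in the trypsinogen cluster of chromosome 6. The other named genes among the 12 most alike had r of 0.69 to 0.73: Olfr1189, Rab31, Slc38a5, Get3, Gng5, Uqcrb, Ankfy1 and Snapc5. At the other end stood Tox (-0.74), Klhl32 (-0.71), Rtcb and Cchcr1 (both -0.70), Bbs5 (-0.69) and Prr3 (-0.67). The median r over all genes was -0.018, with 5th and 95th percentiles of -0.40 and 0.43.

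The transcription factors that set up acinar identity followed the enzymes less closely. Ptf1a, which with Rbpjl forms the PTF1 complex that drives acinar enzyme genes, was well above background on 2 arrays and was not measured. Rbpjl, above background on 12 arrays, had an r of 0.46 with the members and a range of 1.53-fold. Xbp1 (0.28) and Nr5a2 (0.21) were followed at the end by Bhlha15 (-0.19), a regulator of secretory cells. The mean of the 6 measured factors had an r of 0.10. Without HF-Q mouse 1 and HF mouse 11, r was 0.29 for Rbpjl, -0.01 for Xbp1, 0.50 for Nr5a2, -0.28 for Bhlha15 and 0.01 for that mean. Xbp1, Gata4 and Gata6 are expressed by intestinal cells too. Like them, Nr5a2 and Bhlha15 were well above background on all 23 arrays.

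Genes of the rest of the pancreas ran far less with the enzymes. Of 14 islet genes 11 were measured, and their mean had an r of 0.34, between -0.13 and 0.19 in HF and between -0.08 and 0.15 in HF-Q. Among them Pdx1, which duodenal epithelium also expresses, had the highest r (0.60; -0.72 to 0.70), ahead of Ins1 (0.39) and Ucn3 (0.24), and Mafa the lowest (-0.21). Ppy and G6pc2 were above background on 0 arrays and Slc30a8 on 4. Of 7 duct genes 6 were measured and Muc1 on 0 arrays, and their mean had an r of -0.34, with Krt19 at 0.05 and Sox9 at -0.36.

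One gene of the upper gut stood with the enzymes. Tff2, a trefoil peptide of gastric and duodenal mucous glands that was first isolated from pig pancreas, had an r of 0.95 and a rho of 0.94, and ran from -1.08 to 1.73. It was well above background on 15 arrays. HF-Q mouse 1 was highest in Tff2 at 1.73, and HF mice 2, 11 and 4 followed at 1.25, 1.20 and 1.11. Muc6, a mucin of the same glands, was above background on 0 arrays. The other measured genes of the Brunner gland and duodenum list had r of -0.14 (Ghrl) to 0.50 (Slc40a1), with Sct at 0.43. The mean of the 9 measured genes of 10 had an r of 0.86, lying between -0.25 and 0.30 in HF and between -0.22 and 0.30 in HF-Q. The median r of these genes was 0.25 and Tff2 was the only one over 0.8; its SD of 0.82, against a median SD of 0.28 in the list, gives it a large weight in that mean.

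Means of the markers of position along the gut and of the stomach did not follow closely. Pyy and Nts, both distal genes, lay above the 95th percentile of r over all genes. The mean of the 8 proximal genes had an r of -0.06, with Fabp1 highest (0.18) and Bche lowest (-0.26), and that of the 10 distal genes 0.19, with Pyy (0.58) and Nts (0.45) highest and Enpep lowest (-0.10). Of 10 stomach genes 4 were measured, with Pgc highest (0.26) and Gkn3 lowest (-0.40), while Gkn1 and Gkn2 were above background on 0 arrays, Tff1 and Atp4a on 1 and Atp4b on 2.

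Of the other cells that a scraping may hold, smooth muscle genes all had a negative r with the members (8 of 8, from -0.41 for Synpo2 to -0.19 for Des). Their mean (r = -0.33) ran from -0.76 to 1.12 in HF and from -1.39 to 0.87 in HF-Q. The 7 measured Paneth cell genes were also all negative, from -0.33 (Itln1) to -0.09 (Lyz2), and their mean (r = -0.25) ran from -1.15 to 0.76 in HF and from -1.55 to 0.69 in HF-Q. The median r over all genes was also negative (-0.018). Of the smooth muscle and Paneth cell genes only Synpo2 lay below the 5th percentile of all genes (-0.40). Adipocyte genes, 7 of 9 measured, had a mean with r = 0.27, or 0.53 without HF-Q mouse 1 and HF mouse 11; Adipoq and Car3 (both 0.44) were highest and Pck1 (-0.25) lowest. Their mean lay between -0.65 and 0.51 in HF and between -0.45 and 0.66 in HF-Q. Enterocyte genes (12 of 12) had a mean with r = 0.20, Apoa4 highest at 0.48 and Anpep lowest at -0.35. Without HF-Q mouse 1 and HF mouse 11 the enterocyte mean also rose, to 0.42, while the smooth muscle and Paneth means stood at -0.34 and -0.30. The means of the 6 measured hepatocyte genes and the 2 measured mesothelial genes of 5 had r of -0.01 and -0.07. The part of any of these cells in the spread of the enzymes was not tested.

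**Figure D5:**
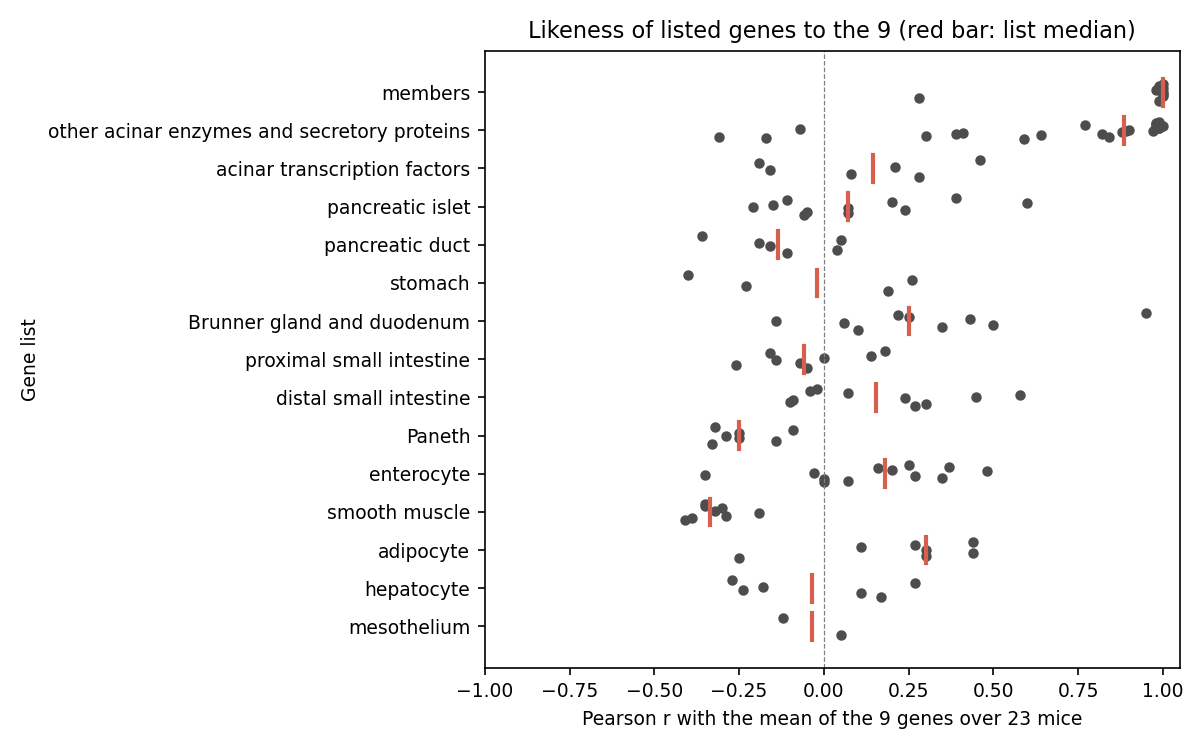
Each point is 1 measured gene, placed along the horizontal axis by its Pearson r with the mean of the 9 genes over the mice and along the vertical axis by its list, and red bars give list medians; each of the 9 is itself part of that mean. Members and other acinar products gather near 1 with medians of 1.00 and 0.88, Clps being the member at 0.28, and the point at 0.95 among the Brunner gland and duodenum genes is Tff2.

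Depth and quality of the arrays were set beside the enzymes. The number of outlier spots per array, 260 to 355, had an r of -0.29 with the mean of the 9 genes, and the number of probes well above background an r of -0.14.

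Promoters of the members were examined because 8 of the genes moved together. RefSeq sequences on GRCm38.p6 of the 250 bases before the start were matched for 8 of the 9, all but Clps, and searched on both strands. CANNTG, the E-box that PTF1A and other basic helix-loop-helix factors bind, was found in 7 of 8, all but Pnlip, and in 66.2% of all 32851 promoters. TTTCCC, the second box of the PTF1 site, was found in 4 of 8 and in 21.9% of all. CATATG, an E-box that BHLHA15 prefers and a special case of CANNTG, was found in 0 of 8 and 3.46% of all, and CAAGGTCA, the NR5A2 motif, in Cel alone and 1.33% of all. Among 23 promoters of the other acinar products, the counts were 18 for CANNTG, 4 for TTTCCC, 0 for CATATG and 1 for CAAGGTCA. The 4 member promoters with TTTCCC are printed 5′ to 3′ in the direction of transcription, with that motif, or GGGAAA where it lies on the other strand, in capitals.
Cpa1 (chr6:30638968-30639217, + strand): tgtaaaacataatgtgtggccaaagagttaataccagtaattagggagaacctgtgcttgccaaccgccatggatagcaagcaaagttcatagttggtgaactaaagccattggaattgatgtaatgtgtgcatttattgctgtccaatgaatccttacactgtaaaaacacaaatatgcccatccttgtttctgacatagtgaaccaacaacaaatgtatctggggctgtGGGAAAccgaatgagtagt
Ctrb1 (chr8:111691011-111691260, - strand): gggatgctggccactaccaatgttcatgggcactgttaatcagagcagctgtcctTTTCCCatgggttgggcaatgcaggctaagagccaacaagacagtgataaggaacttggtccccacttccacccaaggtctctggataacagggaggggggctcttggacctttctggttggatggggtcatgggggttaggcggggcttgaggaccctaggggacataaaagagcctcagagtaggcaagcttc
Prss2 (chr6:41521526-41521775, + strand): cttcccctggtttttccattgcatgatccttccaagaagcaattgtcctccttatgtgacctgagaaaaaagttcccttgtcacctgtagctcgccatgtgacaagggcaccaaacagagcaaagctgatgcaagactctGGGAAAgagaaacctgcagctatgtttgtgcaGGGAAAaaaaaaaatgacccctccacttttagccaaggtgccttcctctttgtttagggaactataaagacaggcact
Cel (chr2:28563404-28563653, - strand): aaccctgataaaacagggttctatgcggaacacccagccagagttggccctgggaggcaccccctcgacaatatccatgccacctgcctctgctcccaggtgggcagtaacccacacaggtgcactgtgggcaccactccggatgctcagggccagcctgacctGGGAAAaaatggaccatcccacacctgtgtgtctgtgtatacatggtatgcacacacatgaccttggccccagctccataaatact
The motif lay 19 bases before the start in Cpa1, 195 in Ctrb1, 110 and 78 in Prss2 and 86 in Cel. Cpb1, Pnlip, Pnliprp1 and Cela3b had no match in this window.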

How the data were processed

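Small intestinal scrapings of 23 mice were measured on 2-colour Agilent arrays without dye swap. The deposited scanner files, read by the authors with Agilent Feature Extraction 10.7.3.1 per the file headers, hold spot and background intensity on a linear scale and a log10 ratio (Cy5 over Cy3) that the authors' software computed. A table deposited by the authors holds processed log2 values of 31718 spots. That table and the log10 ratio served only as alternatives.

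In limma 3.58.1 (R 4.3.3), background was corrected with normexp (offset 50), arrays were loess-normalized with 3671 control spots at weight 0, and outlier spots were set to missing. Probes whose Cy5 exceeded background clearly on 50% or more of one diet's arrays were kept (29249 of 55681), and the brightest probe stood for a gene. Names came from a RefSeq table (GRCm38.p6) by accession (27235 probes), symbol (3581) or synonym (565), otherwise from the scanner files. The diets were compared with lmFit and eBayes, two-sided, with Benjamini-Hochberg adjustment over all 21477 genes. The number of mice limits the precision. The members, gene lists, motifs and tests were chosen with earlier results of these data known. Named are all members, of the other acinar list the 8 highest and 4 lowest in r, of every other list up to 3 highest and 1 lowest, and outside the lists the 12 highest and 6 lowest; any other gene named was picked after its values were seen. One gene that this rule names and 1 probe sequence are not reported here. Alternatives were the values' source (among them the ratio as background-subtracted and dye-normalized by the scanner software), normalization, filter, probe, saturated spots, slide, replicate number, array weights and single mice left out, and the fit was tested on simulated data.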

Additional observations from a re-analysis of the deposited data

How the results depend on the processing

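No gene passed under any of the 16 alternatives to the comparison of HF-Q with HF (smallest adjusted p in limma 0.413, with slide as a block); the count with an unadjusted p under 0.05 was 973, against 1587 with no filter on dim probes (34741 genes tested) and 1473 with the mean of the 9 genes as a covariate, which was added after seeing the data. The difference kept its sign for all members except on slide 2 alone, where it was 0.26 for Cpa1, 0.13 for Cpb1, 0.23 for Pnlip, 0.39 for Pnliprp1, 0.21 for Cela3b, 0.24 for Ctrb1 and 0.19 for both Prss2 and Cel; 7 mice are left there, and the cause was not tested. The difference of the mean of the 9 genes ran from -1.21 to 0.20 and the median correlation among members from 0.978 to 0.992. Ranges were smaller on slide 1 alone, for example 4.86 for Cpb1, and reached 9.68 for Cpb1 at most. The difference of the mean of the 9 genes was -0.92 without HF-Q replicate 1, the highest mouse, -0.28 with array weights, and -0.41 without HF-Q replicate 2, which was also added after seeing the data.

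The labels number replicates alike in both diets and do not say whether the numbers mark pairs. The 11 same-numbered pairs had correlations of -0.35 to 0.39 (5 over 0.1), and 2 of 11 mice correlated best with their own number. No strong pairing was visible, but low correlations cannot exclude that the numbers mark pairs. With the replicate number as a block 0 genes passed (smallest adjusted p 0.925), and the difference of the mean was -0.77. At the low end, Cpb1 was not well above background on 4 arrays and Pnlip on 1, so those values have only an upper bound. Every other member was well above background on all 23 arrays.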

Other observations

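Clps, which did not follow the other enzymes, was set beside all other genes after its values were seen, so what follows is a description over 22 mice that share their arrays. The named genes most like it were Ifitm1, an interferon-inducible membrane protein (r = 0.80), Sod3, the extracellular superoxide dismutase (0.79), Anxa1 and the endothelial adhesion molecule Icam2 (both 0.78). The 6 that ran most against it were Cd8a, the coreceptor of cytotoxic T cells (-0.76), the granule protease Gzmb and the cathepsin Ctsw (both -0.74), and Cd3g of the T cell receptor complex, the tubulin cofactor Tbcc and the zinc finger protein Mynn (all -0.73). Without HF-Q mouse 2, the lowest in Clps, r was 0.60 for Ifitm1, 0.62 for Sod3, -0.74 for Cd8a, -0.69 for Gzmb and -0.80 for Mynn.

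The mean of the Paneth cell genes had r = 0.61 with Clps (7 of 7 positive), or 0.41 without HF-Q mouse 2. That of the distal small intestine genes had 0.44 (9 of 10 positive) and 0.58 without that mouse, and that of the hepatocyte genes 0.48 and 0.44. The mean of the proximal small intestine genes had r = -0.52 (0 of 8 positive), or -0.47 without that mouse, and that of the other acinar products 0.31 (0.16 without it). Smooth muscle genes had a mean with r = 0.50 (8 of 8 positive), or 0.29 without that mouse. Means of the stomach, acinar transcription factor and duct lists had r of 0.48, 0.44 and 0.41. Those of the enterocyte and adipocyte lists had -0.46 (2 of 12 positive) and -0.42 (0 of 7 positive). The mesothelial, Brunner gland and duodenum, and islet lists lay at 0.26, 0.13 and -0.14. The share of all genes with a positive r with Clps was not counted.

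Reg2, a regenerating protein of pancreas and islets picked after its values were seen, ran with the enzymes (r = 0.82, range -2.51 to 3.14). Without HF-Q mouse 1 and HF mouse 11 its r was 0.73. Its mean was higher in HF-Q by 0.39 ± 0.60 log2 (SE), with an adjusted p of 0.964 in limma. The highest value, 3.14, was that of HF-Q mouse 1, and the difference without this mouse was not computed.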
